A study of Homo sapiens with 3 samples.

Results

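The genes described here are RNF111, which encodes the ubiquitin ligase Arkadia, and 7 genes around it in the control of TGF-beta signalling: SKI, SKIL, SMAD7, SMURF1, SMURF2, USP15 and PPM1A. They were taken by name, as 8 of the 23284 rows of the authors' gene table and 20 of the 41138 rows of its isoform table. All 8 passed the filter on low values, set at 1 FPKM on average, which kept 11870 genes. FPKM is the number of fragments scaled to transcript length and to library size.

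Polyadenylated RNA came from HEK293T, a transformed line of human embryonic kidney cells, in 3 groups of 1 library each. One group received a negative control siRNA, one an siRNA against Arkadia, and one an siRNA against ESRP2, an epithelial splicing regulator. All were reverse transfected with a lipid reagent, left without added TGF-beta and harvested 48 h after seeding. With 1 library a group there is no replicate error, no test and no p-value, so each difference is one between libraries; siRNA sequences, the number of siRNAs per gene and protein levels were not used here.

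TGF-beta receptors phosphorylate receptor SMADs, which enter the nucleus with SMAD4 and bind DNA. SKI and SKIL (also called SnoN) are related nuclear proteins that hold SMAD complexes in a repressed state, and SMAD7 blocks the receptor and brings the ligases SMURF1 and SMURF2 to it. Arkadia raises pathway output by marking SKI, SKIL and SMAD7 proteins for the proteasome. USP15 removes ubiquitin from pathway proteins, and PPM1A is a phosphatase that acts on receptor SMADs. SMAD7 and SKIL are also transcribed in response to TGF-beta, as feedback inhibitors. Arkadia acts on protein, and the tables measure RNA only.

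The sequences below are some of those by which the isoforms and starts described further down differ. They are on GRCh38, from GENCODE 29 transcripts for coding segments and from RefSeq (GRCh38.p14) for upstream sequence, whereas the deposited FPKM values are on hg19. USP15 isoform NM_001252078 carries 87 coding nt that NM_006313 lacks, at chr12:62349221-62349307 on the plus strand, enough for 29 residues.
USP15 87-nt segment: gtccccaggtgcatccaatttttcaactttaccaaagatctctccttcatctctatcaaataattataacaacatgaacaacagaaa
SMURF1 isoform NM_020429 carries 78 coding nt (26 residues) that NM_181349 lacks, at chr7:99050915-99050992 on the minus strand.
SMURF1 78-nt segment: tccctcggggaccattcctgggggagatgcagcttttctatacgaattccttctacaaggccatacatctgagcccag
SKIL isoform NM_001248008 carries 138 coding nt (46 residues) that NM_001145097 lacks, at chr3:170384628-170384765 on the plus strand.
SKIL 138-nt segment: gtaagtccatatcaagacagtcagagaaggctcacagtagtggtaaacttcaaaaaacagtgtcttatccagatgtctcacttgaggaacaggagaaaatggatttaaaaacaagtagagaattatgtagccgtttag

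For SMAD7, PPM1A and SKIL the isoforms also differ in where transcription starts, and for SMAD7 and PPM1A the sequences before such starts are shown. The sequence before the start of the short SMAD7 isoform NM_001190822 (chr18:48949334-48949583, minus strand) and those before the 2 PPM1A starts (chr14:60245500-60245749 for NM_177952 and chr14:60248971-60249220 for NM_021003, plus strand) are printed as 250 nt each. None of the 3 stretches overlapped an exon of its gene in GENCODE 29. Capitals mark CAGAC or its reverse complement GTCTG, the short element that SMAD proteins bind.
SMAD7 internal start: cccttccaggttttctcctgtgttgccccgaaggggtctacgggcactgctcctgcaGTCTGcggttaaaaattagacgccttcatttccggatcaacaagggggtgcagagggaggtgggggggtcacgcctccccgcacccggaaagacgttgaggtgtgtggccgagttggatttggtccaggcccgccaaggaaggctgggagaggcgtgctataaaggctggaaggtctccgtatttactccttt
PPM1A first start: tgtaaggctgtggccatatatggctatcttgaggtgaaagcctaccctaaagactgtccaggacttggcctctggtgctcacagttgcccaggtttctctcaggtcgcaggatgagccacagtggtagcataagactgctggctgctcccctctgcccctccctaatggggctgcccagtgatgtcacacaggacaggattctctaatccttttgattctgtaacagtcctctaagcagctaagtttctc
PPM1A second start: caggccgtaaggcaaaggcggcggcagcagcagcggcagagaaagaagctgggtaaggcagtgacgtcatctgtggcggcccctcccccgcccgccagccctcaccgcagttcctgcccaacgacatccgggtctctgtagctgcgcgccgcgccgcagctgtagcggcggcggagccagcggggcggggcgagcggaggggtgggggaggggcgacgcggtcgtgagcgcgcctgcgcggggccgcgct
RefSeq windows of 300 nt around starts were found for 7 of the 8 genes, 11 windows in all. CAGAC or GTCTG was present in 8 of the 11 windows, against 45.3% of all 35116 windows. The palindrome GTCTAGAC was in 0 of the 11 and in 0.202% of all windows. A match is a description of these letters and not a binding site.

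Read numbers were estimated from the spacing of the authors' interval bounds. This gave depths of 11.8 M (control), 12.2 M (ESRP2) and 8.98 M (Arkadia). Of 6 genes that HEK293 cells are known to express, 5 had a mean FPKM of at least 1. Of 13 markers of leukocytes, endothelium, erythroid cells, liver and muscle, 0 did, and their summed FPKM was 1.18 to 2.30. Log ratios moved with transcript GC content over the whole table, in opposite directions in both comparisons with control. In the lowest GC decile (median 37.5% GC) the median log2 ratio was -0.46 with Arkadia siRNA and 0.60 with ESRP2 siRNA. In the highest (64.4% GC) it was 0.34 and -0.49. The 8 genes span 33.4% GC in SKIL to 59.95% in SKI, so each log2 ratio, log2((FPKM + 1)/(FPKM + 1)), is also given after the median of the gene's GC decile was subtracted.

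RNF111 lies on chromosome 15 from 59279865 to 59389253 on hg19, the build of all gene positions given here. Its FPKM was 6.38 with control siRNA, 7.65 with ESRP2 siRNA and 1.15 with Arkadia siRNA, from about 416, 518 and 57 reads. The library given the siRNA against it was the lowest, and its authors' interval of 0.50 to 1.82 lay below those of control (3.15 to 9.59) and ESRP2 siRNA (3.79 to 11.5). The log2 ratio of Arkadia to control siRNA was -1.78, lower than all but 0.110% of compared genes, and -1.54 after GC subtraction. Against ESRP2 siRNA it was -2.01, and -1.38 after GC subtraction. RNF111 had 1 isoform in the table, NM_017610, so the loss cannot be split by transcript. ESRP2 siRNA gave 0.23, with overlapping intervals, and -0.18 after GC subtraction.

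**Figure D1:**
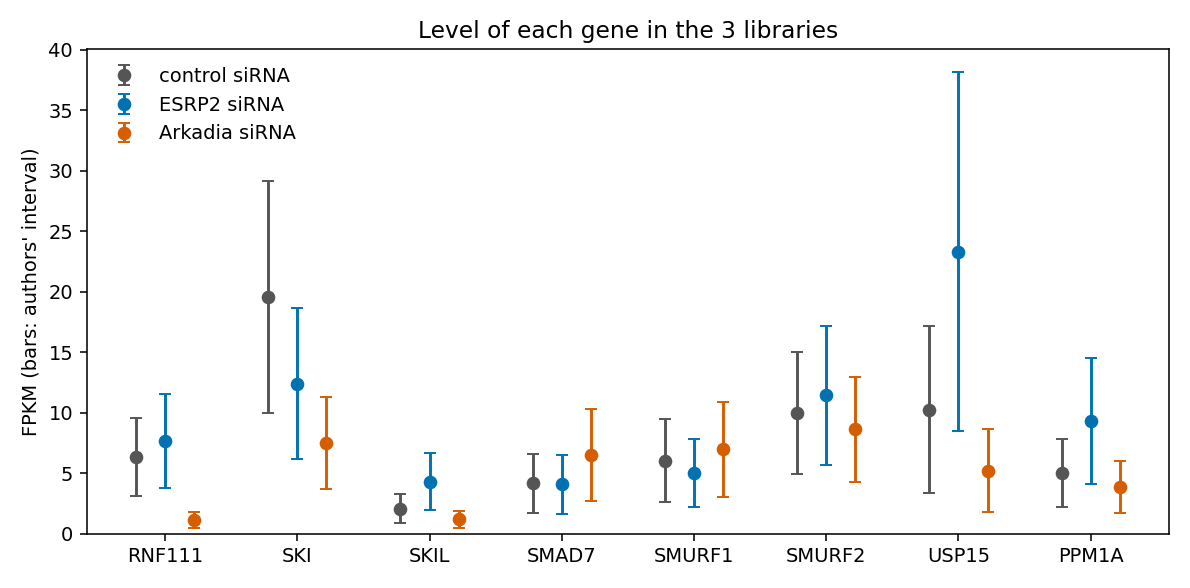
FPKM (y axis, linear) of the 8 genes by siRNA (grey control, blue ESRP2, orange Arkadia); points are single libraries and bars the authors' intervals. The RNF111 point at 1.15 with Arkadia siRNA lies below both other RNF111 intervals, while for SKI the points stand at 19.6, 12.4 and 7.51 and neighbouring bars overlap.

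Of the 3 known substrates of Arkadia, SKI had the largest log2 ratio in size between Arkadia and control siRNA. SKI (chromosome 1, 2160134 to 2241652) had an FPKM of 19.6 with control, 12.4 with ESRP2 and 7.51 with Arkadia siRNA, from about 1319, 867 and 385 reads. The control library was highest and the Arkadia siRNA library lowest. The Arkadia interval (3.70 to 11.3) reached just above the lower bound of control (10.0), and so overlapped it. SKI was 61.7% lower with Arkadia than with control siRNA, a log2 ratio of -1.27. Its GC content is high, where the decile median was 0.34, and subtraction moved the ratio to -1.62, lower than all but 0.179% of genes. With ESRP2 siRNA the ratio was -0.62, past 1.5-fold, and -0.28 after subtraction, short of it. SKI was thus lower in both knockdown libraries, and both are set against the same control.

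SKIL, the relative of SKI, was the least abundant of the 8 in the control library. SKIL (chromosome 3, 170075473 to 170114637) had an FPKM of 2.06 with control, 4.30 with ESRP2 and 1.20 with Arkadia siRNA, from about 164, 356 and 75 reads. The ESRP2 siRNA library was highest. Its interval (1.96 to 6.65) overlapped that of control (0.862 to 3.27) and lay just above that of Arkadia siRNA (0.483 to 1.92). SKIL has the lowest GC content used for the 8, 33.4%, taken from its longest isoforms; the GENCODE transcript matched to its most abundant isoform, NM_001145098, has 38.7%. The log2 ratio with ESRP2 siRNA was 0.79 and became 0.19 after subtraction, that with Arkadia siRNA was -0.48 and became -0.02, and that between the knockdowns was -1.27 and became -0.20. Most of the difference between the knockdown libraries was thus also that of the median transcript of its GC decile, -1.07.

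SMAD7 (chromosome 18, 46446223 to 46477081), the inhibitory SMAD, had an FPKM of 4.18 with control, 4.10 with ESRP2 and 6.53 with Arkadia siRNA, from about 144, 131 and 152 reads. The Arkadia siRNA library was highest, but all 3 intervals overlapped, from 1.73 to 6.63 with control and from 2.73 to 10.3 with Arkadia siRNA. The log2 ratio of Arkadia to control siRNA was 0.54, below 1.5-fold with the pseudocount of 1, and 0.63, above it, with a pseudocount of 0.1. After GC subtraction it was 0.29. That used the 58.7% GC of the longest isoform, in a decile with a median of 0.25. The GENCODE transcript matched to NM_001190822, the most abundant isoform with both knockdowns, has 53.8%. In the decile with a median of 54.0% GC the median log2 ratio was 0.14, so less would be subtracted.

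The HECT-type ligases that SMAD7 recruits differed little. SMURF1 (chromosome 7, 98625058 to 98741743) had an FPKM of 6.03 with control, 4.99995 with ESRP2 and 6.99 with Arkadia siRNA. SMURF2 (chromosome 17, 62540735 to 62658386) had 9.98, 11.4 and 8.66. Neither passed 1.5-fold in any of the 3 comparisons as computed, and all their intervals overlapped. The log2 ratios of Arkadia to control siRNA were 0.19 for SMURF1 and -0.19 for SMURF2.

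USP15 (chromosome 12, 62654121 to 62803501), the deubiquitinase, had an FPKM of 10.2 with control, 23.3 with ESRP2 and 5.21 with Arkadia siRNA, from about 728, 1849 and 283 reads. The knockdown libraries stood on opposite sides of control, with log2 ratios of 1.12 and -0.86, and the intervals of the knockdowns met only at their ends (8.52 to 38.1 and 1.78 to 8.66). Its GC content of 36.6% lies in the lowest decile. After subtraction the ratios were 0.52 and -0.39, neither past 1.5-fold, and the ratio between the knockdowns moved from -1.97 to -0.90, which still passed it.

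PPM1A (chromosome 14, 60712470 to 60765805), the SMAD phosphatase, had the same order at lower levels, with an FPKM of 5.003 with control, 9.31 with ESRP2 and 3.83 with Arkadia siRNA. Its log2 ratios of 0.78 and -0.31 became 0.18 and 0.15 after GC subtraction, and the ratio between the knockdowns went from -1.09 to -0.02. For PPM1A, as for SKIL, the values left after subtraction were small in all 3 comparisons with the GC content used. That was 36.1%, of the longest isoform, NM_021003. The GENCODE transcript matched to NM_177952, the most abundant isoform with both knockdowns, has 43.0%. In the decile with a median of 42.7% GC, less would be subtracted. Its medians were 0.41 with ESRP2 siRNA and -0.63 between the knockdowns, against 0.60 and -1.07 in the decile used.

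In counts, 0 of the 8 genes were higher and 3 lower by 1.5-fold with Arkadia siRNA (RNF111, SKI and USP15), where 21.6% of all compared genes passed this size either way, 9.81% higher and 11.8% lower. RNF111, the target of Arkadia siRNA, is part of the counts of both comparisons with that library, here and after GC subtraction. The median log2 ratio of Arkadia to control siRNA was -0.39 over the 8 genes, -0.31 without RNF111 and -0.02 over all genes. RNF111 was the only one of the 3 with intervals that did not overlap, a state reached at this size by 0.438% of genes. With ESRP2 siRNA 3 were higher (SKIL, USP15 and PPM1A) and 1 lower (SKI), against 31.3% of all genes either way, 19.9% higher and 11.4% lower. Of these, 0 had intervals apart, as did 1.28% of genes at this size. The median was 0.21 over the 8 and 0.12 over all genes. Between Arkadia and ESRP2 siRNA 5 were lower and 0 higher, against 52% of all genes, 21.2% higher and 30.8% lower, and RNF111 and SKIL had intervals apart, as did 6.36% of genes at this size. Both scalings and length subtraction took SKI below 1.5-fold in this comparison (-0.51, -0.51 and -0.29) and put SMAD7 above it as higher (0.69, 0.70 and 0.73), as did a pseudocount of 0.1 (0.66). Length subtraction also put SMURF1 above it (0.78).

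After GC subtraction 2 of the 8, RNF111 and SKI, were lower with Arkadia siRNA, against 13.4% of genes either way. With ESRP2 siRNA 0 of the 8 passed 1.5-fold, against 16.9% of genes. Between the knockdowns 3 passed, RNF111, SKI and USP15, against 26.5% of genes. The medians over the 8 were then -0.01, 0.03 and -0.11. The 4 calls of the ESRP2 siRNA comparison were thus made only without the subtraction, and those of RNF111 and SKI with Arkadia siRNA were made with and without it.

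**Figure D2:**
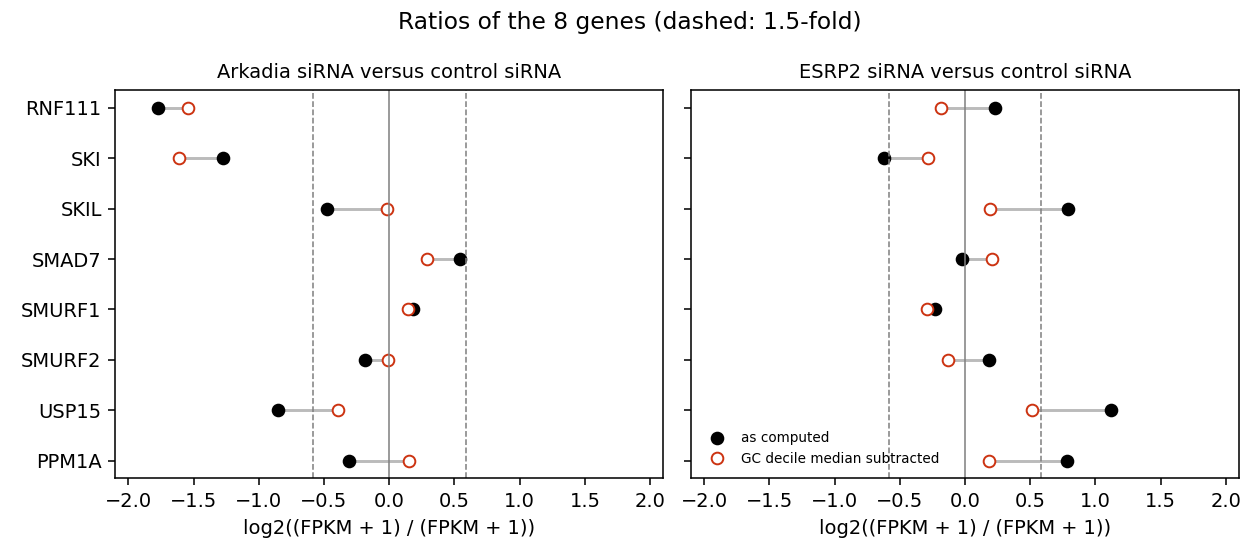
Log2 ratio to control siRNA (x axis, log2 scale) of the 8 genes with Arkadia siRNA (left) and ESRP2 siRNA (right); filled points are as computed, open points after subtraction of the GC decile median, dashed lines mark 1.5-fold. On the left RNF111 and SKI stay beyond the line in both forms, at -1.78 and -1.54 and at -1.27 and -1.62, and on the right no open point is beyond it.

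**Figure D3:**
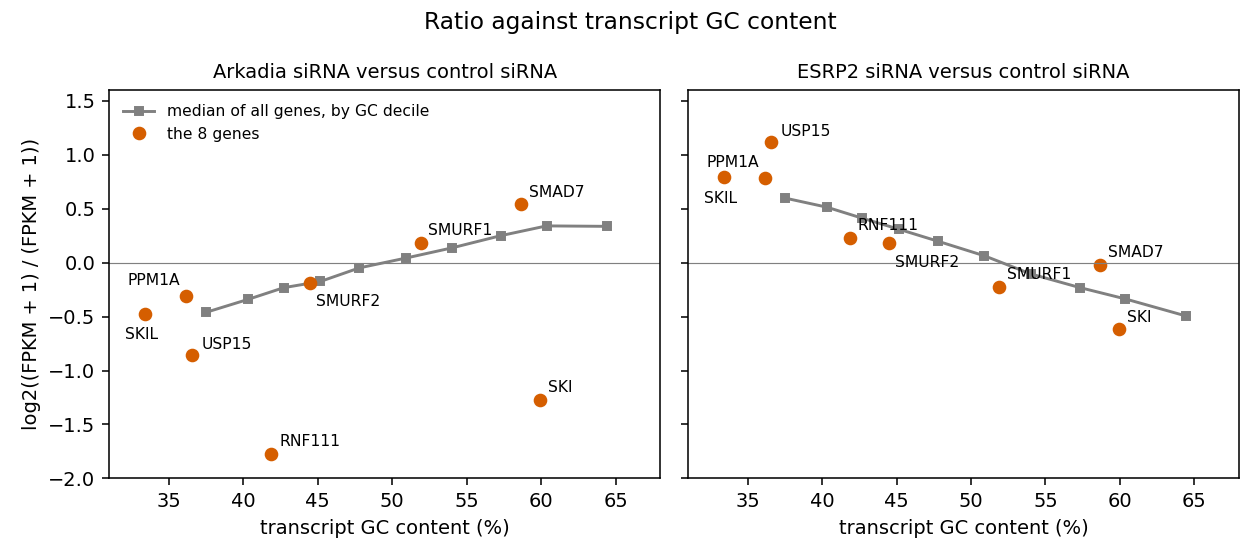
Log2 ratio to control siRNA (y axis) against transcript GC content in percent (x axis) for the 8 genes (circles) and the decile medians of 11760 genes with a GC value (squares). SKIL, PPM1A and USP15, at 33.4% to 36.6% GC, lie low on the left and high on the right, as the decile medians do, and RNF111 and SKI lie far below the line on the left.

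In the control library the genes ranked by FPKM as SKI, USP15, SMURF2, RNF111, SMURF1, PPM1A, SMAD7 and SKIL, a comparison of levels per transcript length. Each neighbour in this order had an overlapping interval. With ESRP2 siRNA USP15 was first, and with Arkadia siRNA SMURF2 was first, at 8.66, and RNF111 and SKIL were last, at 1.15 and 1.20.

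Isoform shares were taken as each isoform's part of the gene's summed FPKM. They could be formed for 5 of the genes, since RNF111, SKI and SMURF2 have 1 isoform each in the table. The change in usage between libraries was taken as the part of the gene's FPKM that moved from some isoforms to others, so 1 is a full exchange. Only USP15 among them reached a summed FPKM of 5 in all 3 libraries, the level set for counting. SMURF1 missed it by a lowest value of 4.99995 and the others by more. Isoforms of a gene share most of their sequence, so shares of low genes rest on few reads.

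For USP15 the isoform with the 87-nt segment, NM_001252078, had an FPKM of 2.44 with control, 12.0 with ESRP2 and 1.10 with Arkadia siRNA. The isoform without it, NM_006313, had 3.93, 4.10 and 2.16. The former was 23.9%, 51.6% and 21.1% of the gene and the latter 38.4%, 17.6% and 41.5%, so the ESRP2 siRNA library stood apart and the control and Arkadia siRNA libraries were alike. The interval of NM_001252078 with ESRP2 siRNA (4.41 to 19.8) overlapped that of control (0.236 to 4.64) and not that of Arkadia siRNA (0.0719 to 2.25). The short isoform NM_001252079, of 2286 nt, held 37.7%, 30.8% and 37.4%. The usage change was 0.28 between ESRP2 and control siRNA, a size of at least 0.25 that 20% of 3413 genes reached. Between Arkadia and control siRNA it was 0.03, where 17.1% reached 0.25, and between the knockdowns 0.31, where 26.4% did.

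SMAD7 shares differed between control and both knockdown libraries. The full-length isoform NM_005904 had an FPKM of 2.88 with control, 1.57 with ESRP2 and 2.46 with Arkadia siRNA. The isoform from the internal start, NM_001190822, had 0.874, 2.41 and 4.07, from about 24, 68 and 84 reads. These isoforms have different starts, and their coding segments were not compared here. NM_001190822 was 20.9% of SMAD7 with control, 58.8% with ESRP2 and 62.4% with Arkadia siRNA, and usage changes against control were 0.38 and 0.41. All intervals of this isoform overlapped, and the control library is the one that stood apart. By the FPKM assigned to each isoform, the higher gene-level SMAD7 with Arkadia siRNA lay in this isoform, as NM_005904 was 2.46 against 2.88. That assignment was not tested. NM_001190821, which is 3 nt shorter than NM_005904, held 10.2% with control, 2.88% with ESRP2 and 0% with Arkadia siRNA, and NM_001190823 was listed at 0 in each library.

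For PPM1A the isoform from the first start, NM_177952, had an FPKM of 1.19 with control, 5.58 with ESRP2 and 1.76 with Arkadia siRNA, or 23.8%, 59.9% and 45.8% of the gene. The isoforms of the second start summed to 3.81, 3.74 and 2.08. NM_021003 had 2.39, 0.667 and 1.24, or 47.7%, 7.16% and 32.4% of the gene. The shorter NM_177951 had 1.43, 3.07 and 0.835, or 28.5%, 32.96% and 21.8%. With ESRP2 siRNA NM_177952 and NM_177951 were thus above control and NM_021003 below it, and the intervals of each overlapped between libraries. That of NM_177952 was 2.05 to 9.11 with ESRP2 siRNA and 0.0640 to 2.45 with control. The usage change was 0.41 with ESRP2 and 0.22 with Arkadia siRNA. The printed sequence before the first start has 52% GC and that before the second 74.4%, but these stretches lie before the transcripts. The transcripts have the reverse order. Those matched in GENCODE have 43.0% for NM_177952, 36.1% for NM_021003 and 36.6% for NM_177951. Whether GC content takes part in the difference between the starts was not tested.

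SMURF1 isoform NM_020429, with the 78-nt segment, was at or near 0 in each library, at 9.999e-05 with control and 0 with both knockdowns. The other 2 isoforms share a start and differ by 9 nt in length, so few reads may tell them apart. SMURF1 also fell short of the level set for counting, and its shares are given as values only. NM_181349 held 62.1% with control, 93.0% with ESRP2 and 55.9% with Arkadia siRNA, and NM_001199847 held 37.9%, 7.001% and 44.1%. The usage change was 0.31 with ESRP2 and 0.06 with Arkadia siRNA, with overlapping intervals for both isoforms.

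SKIL was mostly NM_001145098, with an FPKM of 1.74 with control, 3.55 with ESRP2 and 0.570 with Arkadia siRNA, or 84.3%, 82.6% and 47.5% of the gene. Its coding sequence in GENCODE 29 differs from that of NM_001248008 by 60 other nt (1992 against 2052), and the 138-nt segment is in both. The isoform without that segment, NM_001145097, held 14.1%, 16.8% and 0.345%. NM_001248008 held 0.927%, 0.00693% and 30.2%, with an FPKM of 0.362 in the Arkadia siRNA library from about 23 reads. NM_005414 held 0.765%, 0.566% and 21.9%. By start, NM_001145097 and NM_001248008 share one, with 15.0%, 16.8% and 30.6% of SKIL, and the other 2 isoforms share another, with 85.0%, 83.2% and 69.4%. The Arkadia siRNA library stood apart, with a usage change of 0.50 from control, and all 4 isoforms there rest on about 75 reads. The intervals of NM_001248008 overlapped between Arkadia (0.0120 to 0.744) and control siRNA (0 to 0.120).

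**Figure D4:**
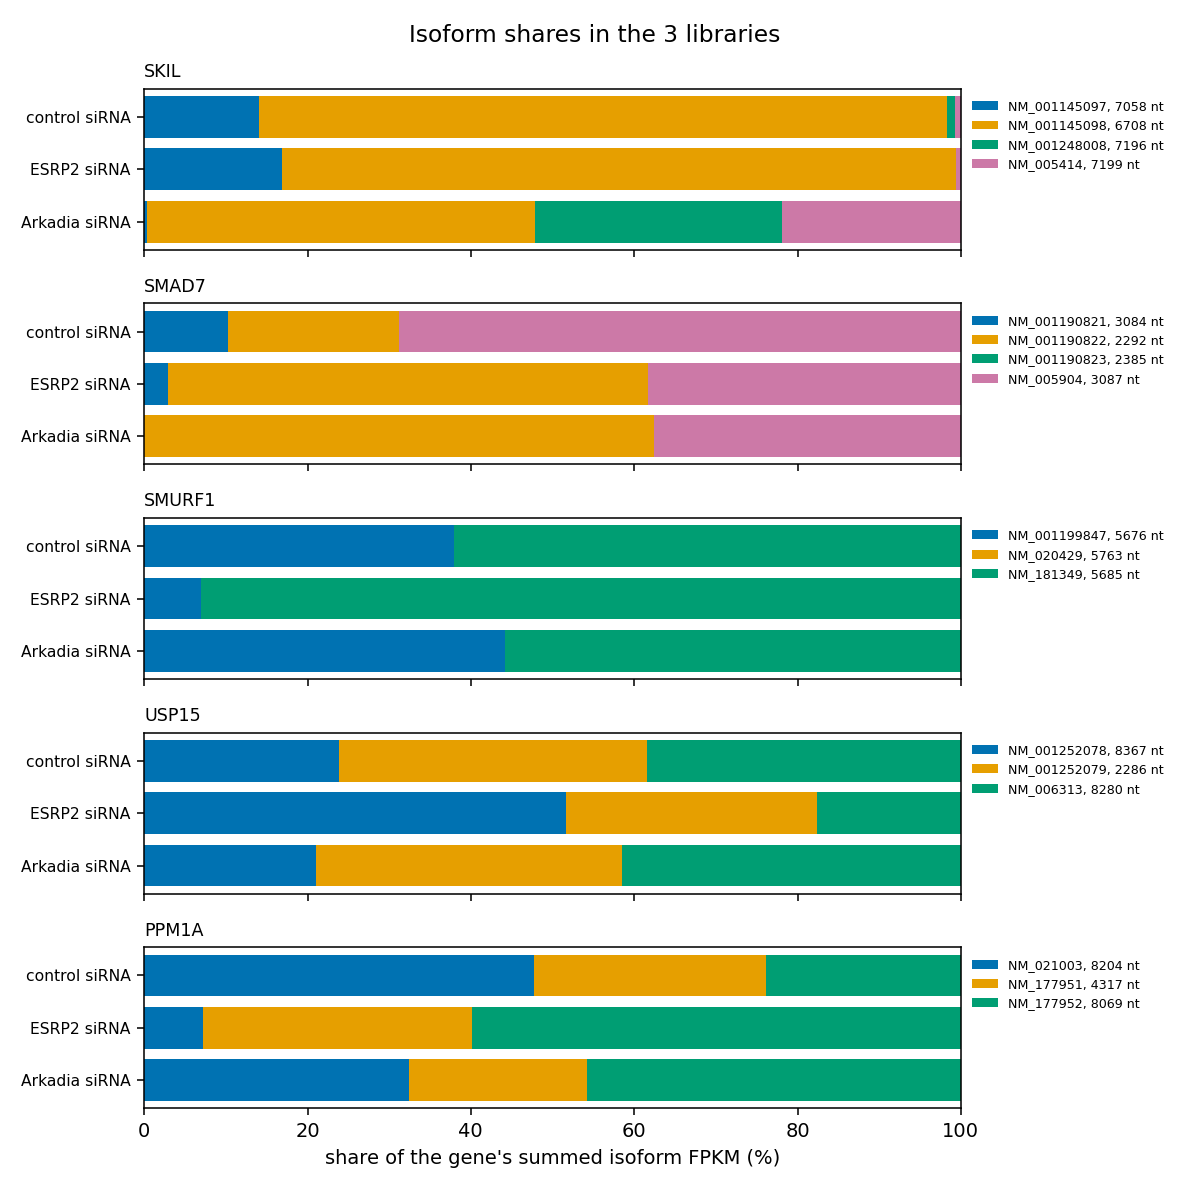
Share of each RefSeq isoform in the gene's summed isoform FPKM (x axis, percent) for 5 genes, with 1 bar per library and colours for isoforms as named beside each panel. In USP15 the ESRP2 siRNA bar differs, with 51.6% NM_001252078, in SMAD7 the control bar differs, with 20.9% NM_001190822, and in SKIL the Arkadia siRNA bar differs, with 47.5% NM_001145098.

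Other genes of the pathway were taken from 9 lists of 81 genes, of which 73 were compared. With Arkadia siRNA 6 were higher and 8 lower by 1.5-fold, or 5 and 5 after GC subtraction. The median log2 ratio was -0.03, against -0.02 over all genes. With ESRP2 siRNA 13 were higher and 9 lower, with a median of 0.11 against 0.12 over all genes, and 9 and 9 after subtraction. The counts as computed are to be read against the 21.6% and 31.3% of all genes past this size. Those after GC subtraction are to be read against 13.4% with Arkadia siRNA and 16.9% with ESRP2 siRNA.

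By role, of 6 ligands with Arkadia siRNA 1 was higher and 1 lower. The FPKM of BMP2 was 3.97 in the Arkadia siRNA library against 0.760 in control, with intervals apart, and that of BMP4 12.1 against 19.4. BMP2 was at 0.632 with ESRP2 siRNA, so it passed the filter of 1 FPKM on average only through the Arkadia siRNA library. Of 9 receptors BMPR1A alone passed, at 9.08 and 5.71. All 7 other SMADs, all 11 corepressors that work with SKI and SMADs, and all 5 further SMAD phosphatases stayed below 1.5-fold as computed. After GC subtraction SMAD1, a SMAD of the BMP branch, was past it at -0.61. As computed, the medians of these 3 lists were -0.17, 0.24 and -0.02.

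Among 10 ubiquitin ligases of the pathway and relatives of Arkadia, 3 were higher and 2 lower with Arkadia siRNA. STUB1, a chaperone-linked ligase, was at 207 with control and 420 with Arkadia siRNA. FBXW7, the substrate receptor of an SCF ligase, was at 7.45 and 3.06, and WWP1, a HECT ligase related to the SMURFs, at 12.4 and 7.28. Of 2 genes related in sequence to RNF111, named here after their values were seen, RNF165 was at 0.592, 0.826 and 0.853 with control, ESRP2 and Arkadia siRNA, below the filter. C18orf25 was at 4.28, 7.92 and 2.998. The log2 ratio of C18orf25 with Arkadia siRNA was -0.40, below 1.5-fold.

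Of 7 deubiquitinases other than USP15, USP4, which acts on the type I receptor, was higher (9.27 and 15.98) and UCHL5 lower (36.8 and 23.9). Among 11 partners of Arkadia, UBE2N, the E2 enzyme for lysine-63 chains, was at 94.0 and 49.1, UBE2D1, another E2, at 9.56 and 5.90, and AP2M1, an endocytic adaptor subunit, at 232 and 353. The scaffold AXIN1, also named after its values were seen, was at 17.7 and 26.3, below 1.5-fold on the log2(FPKM + 1) scale. Of 7 TGF-beta target genes JUNB alone passed, at 6.37 and 3.81. With ESRP2 siRNA 1 of these 7 was higher and 2 lower, JUNB among the latter and lower still, at 1.84. Its interval there lay apart from that of control, the library that both comparisons share. With ESRP2 siRNA 1.28% of all compared genes had intervals apart at this size. After GC subtraction of the ratios with Arkadia siRNA, BMPR1A (-0.25), WWP1 (-0.23), UCHL5 (-0.26), UBE2D1 (-0.15), AP2M1 (0.47), NEDD4L (0.54) and WWP2 (0.43) no longer passed. BMP2, BMP4, STUB1, FBXW7, USP4, UBE2N and JUNB passed in both forms, and ACVR1 (0.76), TRIM33 (0.60) and SMAD1 (-0.61) only after subtraction. BMP2 alone of these genes had intervals apart between Arkadia and control siRNA, a state reached at this size by 0.438% of all compared genes. Its value with Arkadia siRNA is also what took it past the filter on low values.

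**Figure D5:**
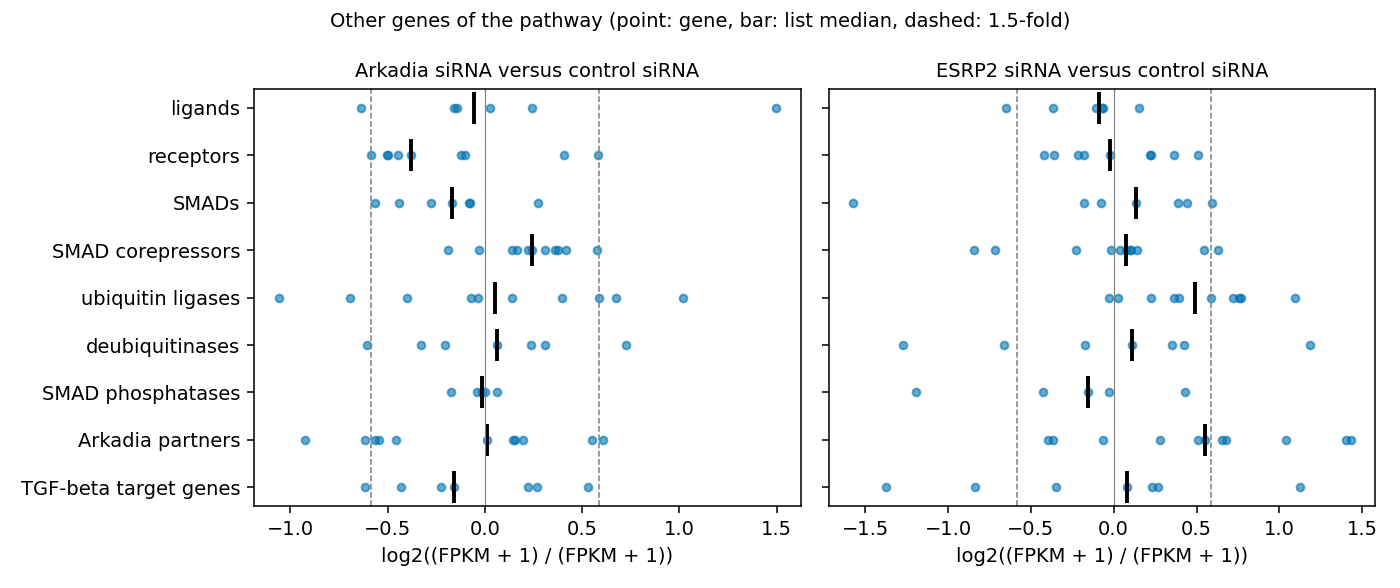
Log2 ratio to control siRNA (x axis) of 73 other pathway genes in 9 lists (rows), with Arkadia siRNA left and ESRP2 siRNA right; points are genes, black bars list medians and dashed lines 1.5-fold. Points beyond the lines number 14 on the left (6 and 8) and 22 on the right (13 and 9).

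The genes most like RNF111 over the 3 libraries were sought among 8556 genes with a mean FPKM of at least 5, by distance in the plane of both log2 ratios to control. SYNC, an intermediate filament protein, was closest, at 29.5, 37.2 and 8.35 with control, ESRP2 and Arkadia siRNA, a distance of 0.11. TOMM5, a subunit of the mitochondrial import pore, followed (276, 310 and 87.3), then the non-coding FGD5-AS1, GOLPH3L and ACYP1, with distances of 0.17 to 0.26. Closest to SKI were the metallothionein MT2A, at 32.6, 21.5 and 13.2 and a distance of 0.05, and the mitochondrial protein TOMM34, at 50.3, 31.5 and 19.6 and a distance of 0.06. HHLA3, UGCG and TMEM64 followed at 0.16 to 0.19. Likeness here rests on 3 libraries only.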

How the data were processed

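Polyadenylated RNA was measured in 3 libraries of HEK293T cells. The authors deposited FPKM values with lower and upper bounds. The submitters' processing notes name Cufflinks 2.1.1, Cuffdiff, TopHat2 2.0.10 and Bowtie2 2.1.0, and the build hg19. How Cuffdiff scaled the libraries, and whether strand was used, is not stated there. Isoform lengths are those of the deposited table.

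From the FPKM, log2((FPKM + 1)/(FPKM + 1)) was computed, which understates changes of low genes, for 11870 genes with a mean FPKM of at least 1, status OK and an isoform of 300 nt or more. A gene was called at 1.5-fold. For GC content, GENCODE 29 transcripts were matched by RefSeq accession or symbol to 99.1% of these genes (all 8 described genes by accession), and medians of 10 deciles were subtracted. GENCODE transcripts can differ in length from the RefSeq ones.

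Read numbers are estimates: of 4125 single-isoform genes over 1000 nt with low FPKM, 1813 had interval bounds that were whole multiples (tolerance 0.01) of a unit, taken as 1 read before library scaling. Scripts (Python 3.11.15, pandas 2.3.3) were tested on simulated data.

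The genes, lists, thresholds and naming rules were chosen with earlier results of these data known. All 8 genes are described. Of each list up to 3 genes past 1.5-fold with Arkadia siRNA are named, by size, and 5 genes by likeness to RNF111 and to SKI. Other pseudocounts, scalings, GC and length subtraction, isoform sums, intervals and filters were tried. GC and length subtraction of the counts were added after the data were seen.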

Additional observations from a re-analysis of the deposited data

How the results depend on the processing

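Of the 8 genes, 3 passed 1.5-fold with Arkadia against control siRNA, 5 with a pseudocount of 0.1, where SKIL (-0.73) and SMAD7 (0.63) were added, and 1 when intervals also had to lie apart. With ESRP2 against control siRNA 4 passed, 0 with intervals apart and 0 after GC subtraction. Between Arkadia and ESRP2 siRNA 5 passed, 2 with intervals apart and 3 after GC subtraction. The cause was not tested. Both scalings, the isoform sums, the missing filter and length subtraction left these counts within 1.5 times, but between the knockdowns both scalings took SKI below 1.5-fold (-0.51 each) and put SMAD7 above it (0.69 and 0.70). Length subtraction there took SKI to -0.29 and put SMAD7 (0.73) and SMURF1 (0.78) above it. No called ratio changed sign under any of these settings. The median of all genes with ESRP2 against control siRNA was 0.12 as deposited and 0.01 after scaling by the median of ratios. Leaving out isoforms under 5% share moved no usage change by 0.05 or more. No paired analysis was possible because each group has 1 library. SKIL, SMAD7 and, with Arkadia siRNA, RNF111 rest on the fewest reads.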
